A study of Mus musculus with 42 samples.

Results

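The genes described here write and maintain DNA methylation in the mouse. They are the maintenance methyltransferase Dnmt1, the de novo methyltransferases Dnmt3a and Dnmt3b, the cofactor Dnmt3l, and the UHRF genes Uhrf1 and Uhrf2. They were chosen by name, 6 of the 48321 gene names in the count tables, and all 6 passed the filter on low counts in both tables, where 16132 and 15197 genes were tested. RNA-seq was made from 42 libraries that follow mouse embryonic fibroblasts (MEF) through reprogramming to induced pluripotent stem cells (iPSC), in 14 groups of 3 and in 2 sequencing batches with a count table each. All cells were labelled male, and values were compared only within a table.

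The first table holds the nx2 set (named naivex2 in the labels), 3 lines from a cross of B6; 129S4-Tg(Tet1-mCherry)B37Koh with B6;CBA-Tg(Pou5f1-EGFP)2Mnn/J that carry each transgene over a wild-type allele. Its 7 groups are the parental MEF at day 0, mCherry+/GFP- cells at days 10, 12 and 14, mCherry+/GFP+ cells at days 12 and 14, and clonal iPSC. The labels give the GFP- cells as stage III and the GFP+ cells as stage IV at day 12 and stage V at day 14. The second table holds the tx2 set (totalx2), 3 lines from a cross of B6-Tet1tm1.1Koh with B6;129S4-Pou5f1tm2Jae/J, with a heterozygous reporter at each gene itself. Its groups are mCherry+/GFP- cells at days 8, 10 and 12 (stage I) and mCherry+/GFP+ cells at day 10 (stage II) and day 12 (stage III). The same table holds wild-type (wt/wt;GFP/wt) and Tet1 knockout (mut/mut;GFP/wt) iPSC clones of the cross B6-Tet1tm1Koh with B6;CBA-Tg(Pou5f1-EGFP)2Mnn/J. These clones come from another cross than the tx2 lines. Between wild-type iPSC and tx2 cells, cell state therefore cannot be told apart from cross and reporter alleles. Every intermediate cell was thus sorted for expression of a Tet1 reporter, and the GFP reporter follows Pou5f1. All iPSC were grown on feeder cells to passage 6 to 7 and depleted of them before harvest, and each iPSC library is 1 clone. The title of the tx2 day 12 GFP- replicate 2 lacks the mCherry mark, so its gate rests on the source name.

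In mammals methylation of cytosine in CpG pairs is copied at each replication by DNMT1, which UHRF1 brings to the half-methylated DNA behind the fork by reading the old strand and marking histone H3 with ubiquitin. UHRF2 has the same domains but does not stand in for UHRF1 in maintenance. DNMT3A and DNMT3B place methylation on unmethylated DNA, and DNMT3L, which has no activity of its own, binds and stimulates them in germ cells and early embryonic cells. Somatic methylation patterns are partly erased and rewritten when fibroblasts become pluripotent, and TET enzymes such as TET1, which oxidise methylated cytosine, work against the writers. RNA levels were measured here, and methylation itself was not.

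On mm10, Dnmt1 lies at chr9:20907206-20959888 on the minus strand, and the other genes on the plus strand: Dnmt3a at chr12:3806007-3914443, Dnmt3b at chr2:153649450-153687730, Dnmt3l at chr10:78041947-78063622, Uhrf1 at chr17:56303321-56323486 and Uhrf2 at chr19:30030513-30093722. Reads were counted over these whole spans, introns included. Each gene had at least 1 entry in the RefSeq promoter table of GRCm38.p6, which gave 13 windows of 250 bases upstream of an annotated start. Dnmt3b and Dnmt3l rose together from MEF to iPSC but differ in CpG content there, and their windows are shown with CpG in capitals. They lie at chr2:153649199-153649448 (plus strand) with 21 CpG and at chr10:78055085-78055334 (plus strand) with 3. Among each gene's windows free of any annotated exon, these are the ones whose short sequence past the start occurs in the most annotated transcripts. Whether those transcripts start there was not examined. The Dnmt3l window lies within the span of Dnmt3l given above.
Dnmt3b: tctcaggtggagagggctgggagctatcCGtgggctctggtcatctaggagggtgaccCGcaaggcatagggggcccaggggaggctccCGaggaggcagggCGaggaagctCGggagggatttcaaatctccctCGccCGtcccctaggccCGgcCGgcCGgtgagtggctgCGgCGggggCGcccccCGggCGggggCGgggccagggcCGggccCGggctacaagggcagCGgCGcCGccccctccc
Dnmt3l: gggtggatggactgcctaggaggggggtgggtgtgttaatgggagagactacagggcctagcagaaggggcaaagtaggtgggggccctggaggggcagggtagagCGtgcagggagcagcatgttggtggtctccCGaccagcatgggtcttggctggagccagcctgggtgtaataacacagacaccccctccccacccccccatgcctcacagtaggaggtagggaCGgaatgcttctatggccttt
The median over 32851 promoter windows of that length was 6 CpG, and the window of Dnmt3b lay at the 83.7th percentile and that of Dnmt3l at the 29th. The richest window of Uhrf2 held 23 CpG, of Uhrf1 30, of Dnmt1 26 and of Dnmt3a 40, while the richest of Dnmt3l held 5.

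Words bound by E2F factors, which drive genes of DNA replication, were searched on both strands as TTTCGCGC, TTTGGCGC, TTTCCCGC or TTTGCCGC. Among the 13 windows they occurred once in Dnmt1 and once in Uhrf1, and they occurred in 1.86% of all promoter windows. Each of these words holds a CpG, and the 2 windows lay at the 90.4th and 94.1st percentile of CpG. The share among windows of like CpG content was not measured. Both sites are shown with the word in capitals, in 30 bases of the gene's strand, at chr9:20952824-20952853 (minus strand) for Dnmt1 and chr17:56304117-56304146 (plus strand) for Uhrf1.
Dnmt1: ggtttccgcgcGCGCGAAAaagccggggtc
Uhrf1: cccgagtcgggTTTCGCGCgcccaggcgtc
The window that holds the Dnmt1 site overlaps an annotated exon, and both sites lie within the spans of their genes given above. Neither word overlapped a CCAAT box (CCAAT, in 33.8% of all windows) or a GC box (GGGCGG, in 32.7%). A match of letters does not show that a factor binds there.

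Counts per library summed to 6540256 to 20783265, and the share on mitochondrially encoded genes was 1.753 to 12.18%, highest in nx2 day 10 GFP- replicate 1 and wild-type iPSC replicate 1. Levels are CPM, counts relative to library totals scaled by TMM, and differences are log2 fold changes ± standard error from edgeR's quasi-likelihood test, called at a Benjamini-Hochberg adjusted p under 0.05 over all genes tested. Tet1 was at 54.3, 58.6 and 57.3 CPM in the 3 Tet1 knockout clones and at 1303, 823 and 874 CPM in their wild-type counterparts. Summed CPM of 8 pluripotency markers was 1.83 to 2.99 in MEF, 421 to 544 in tx2 day 8 GFP- cells and 3548 to 3665 in nx2 iPSC, while that of 8 fibroblast markers was 20849.7 to 21708, 13031 to 20253 and 1254 to 3332. MEF and iPSC thus carry the markers of their labels, and the early tx2 cells hold both kinds. The nx2 iPSC also held fibroblast marker RNA, more than the 558 to 1086 CPM of nx2 day 12 GFP+ libraries. In bulk RNA, a smaller share of cells that express a gene and less RNA per cell cannot be told apart.

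**Figure D1:**
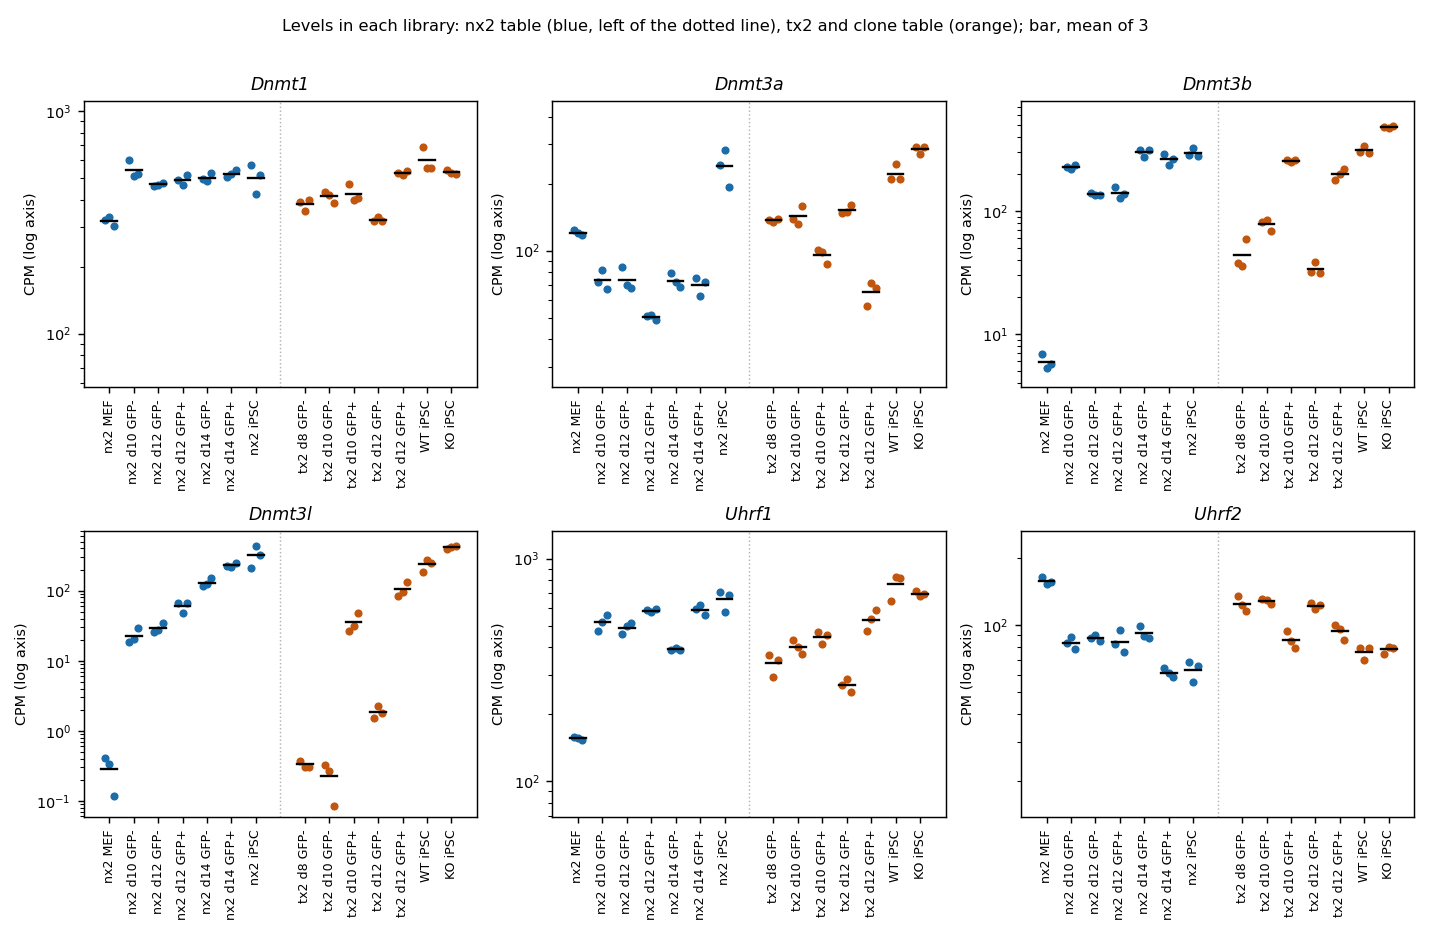
CPM of each gene (log axis) in each of the 42 libraries, by group; points are libraries, horizontal bars the means of 3, blue the nx2 table and orange the tx2 and clone table. Dnmt3l spans from under 1 CPM in MEF and tx2 day 8 and day 10 GFP- cells to 186 to 441 CPM in iPSC, whereas Dnmt1 stays between 305 and 690.5 CPM.

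The genes differed most in how far they moved. Set per length of the longest coding transcript, MEF held Dnmt1 at 54.6 ± 2.39 CPM per kb, Uhrf2 at 44.7 ± 1.78 and Uhrf1 at 43.5 ± 0.732, with Dnmt3a at 12.4 ± 0.346, Dnmt3b at 1.38 ± 0.196 and Dnmt3l at 0.158 ± 0.0835. In nx2 iPSC Uhrf1 stood at 183 ± 19.8 CPM per kb, Dnmt3l at 175 ± 59.5, Dnmt1 at 85.4 ± 12.7, Dnmt3b at 69.3 ± 5.69, Dnmt3a at 24.8 ± 4.71 and Uhrf2 at 17.9 ± 1.87. On this scale Uhrf2 went from a level like that of Uhrf1 to the lowest of all, and Dnmt3l from the lowest to one near Uhrf1. Reads were counted over introns as well, which this length leaves out, and the share of intronic reads was not measured, so the order between genes holds only as far as that share is small. Between the 3 iPSC clones Dnmt3l was also the most spread. From the lowest to the highest group mean Dnmt1 differed 1.70-fold in the nx2 table and 1.85-fold in the other, and Dnmt3l more than any other member in both. The same folds were 50.4 and 14.2 for Dnmt3b, 4.77 and 4.36 for Dnmt3a, 4.22 and 2.82 for Uhrf1 and 2.59 and 1.70 for Uhrf2, so that Dnmt1 had the narrowest range in the nx2 table and Uhrf2 in the other.

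From MEF to the first sorted nx2 cells at day 10, all 6 genes were called, 4 higher and 2 lower, in a comparison that called 76.4% of all genes (38.8% higher and 37.6% lower). Uhrf1 rose by 1.73 ± 0.08 on the log2 scale and Dnmt1 rose by 0.77 ± 0.09, while Dnmt3b rose by 5.25 ± 0.12 and Dnmt3l was also higher, from a few reads in each MEF library. Dnmt3a fell by 0.70 ± 0.11 and Uhrf2 fell by 0.92 ± 0.09. Over the whole course from MEF to nx2 iPSC, where 77.3% of all genes (37.9% higher and 39.4% lower) were called, 5 of the 6 were higher and Uhrf2 alone lower. Dnmt3a rose by 1.00 ± 0.11 there, so it had turned from below MEF to above it. Dnmt3b rose by 5.64 ± 0.12, Uhrf1 rose by 2.08 ± 0.08 and Dnmt1 rose by 0.64 ± 0.09, and Uhrf2 fell by 1.32 ± 0.09. Both comparisons rest on the same MEF libraries. Of the leukocyte markers, Csf1r, Ptprc, Tyrobp and Fcer1g were higher in MEF than at day 10 (Csf1r 18.5 against 0.204 CPM), and Laptm5 and Cd68 lower. Summed trophectoderm markers were at 68.2 to 72.6 CPM in MEF and 6.91 to 8.42 CPM at day 10, although Elf5 and Plac1 were higher at day 10. The part of such cells in the members' differences from MEF was not tested.

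**Figure D2:**
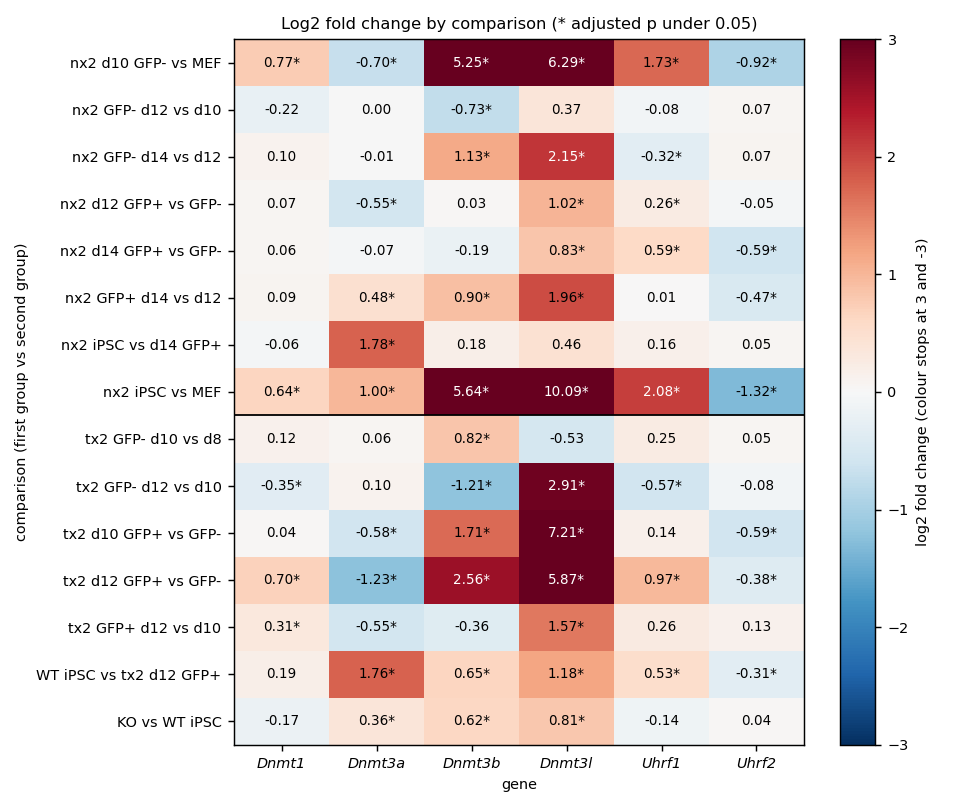
Log2 fold change of each gene (columns) in the 15 comparisons of 2 groups (rows, nx2 above the line); stars mark an adjusted p under 0.05 and the colour stops at 3 and -3. Dnmt3l has no called fall in any row and Uhrf2 no called rise.

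Over the 15 comparisons of 2 groups, many of which share a group and so are not independent, Dnmt3l was called higher in 12 and lower in 0. Among these were comparisons with MEF and with tx2 day 10 GFP- cells, which held 13 and 8 pooled reads of Dnmt3l. There it passed the low-count filter through other groups. Dnmt3b was called higher in 9 and lower in 2, Uhrf1 in 6 and 2, Dnmt1 in 4 and 1, Dnmt3a in 5 and 5, and Uhrf2 in 0 and 7. Dnmt1 was thus the least often called, with 10 comparisons in which it was not, and Dnmt3a the one split evenly between directions.

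Dnmt1, the enzyme that copies methylation to the new strand, was lowest in MEF and in the tx2 day 12 GFP- cells. MEF libraries held 324, 333 and 305 CPM and nx2 day 10 GFP- libraries 601, 512 and 522 CPM. The day 10 libraries were all above the MEF libraries, a 1.70-fold rise (adjusted p = 7.7e-08). From day 10 on, each nx2 group overlapped the next lower one in the order of the means. These were 468 ± 8.18 (SD, n = 3) and 502 ± 21.5 CPM in GFP- cells of days 12 and 14, while the libraries of GFP+ cells held 489.7, 464 and 515 CPM at day 12 and 504, 521 and 541 CPM at day 14, and the iPSC mean was 501 ± 74.4 CPM. None of the 6 comparisons among these groups called it. In GFP- cells the day 12 libraries did not overlap those of day 10, at a difference of -0.22 ± 0.09, adjusted p = 0.078, and the high library of day 10 was the one with 8.99% mitochondrial counts: without it the difference was -0.13 (adjusted p = 0.346).

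In the tx2 cells Dnmt1 separated the gates only at day 12. The GFP- libraries held 391, 354 and 396 CPM at day 8, 434, 419 and 387 at day 10 and 320.4, 334 and 319.7 at day 12. The GFP+ libraries held 468, 399 and 408 CPM at day 10 and 526, 515 and 539 at day 12. At day 10 the gates overlapped (0.04 ± 0.09, adjusted p = 0.812), and at day 12 all GFP+ libraries were above all GFP- libraries. Dnmt1 fell by 0.35 ± 0.09 in GFP- cells from day 10 to day 12 (adjusted p = 0.00597) and rose by 0.31 ± 0.09 in GFP+ cells (adjusted p = 0.0136), and the day 12 gates differed by 0.70 ± 0.09 (adjusted p = 1.4e-06). The rise in GFP+ cells lost its call without 1 of these libraries (day 10 replicate 2 or 3, or day 12 replicate 3), with adjusted p of 0.0533 to 0.0858.

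UHRF1, the reader that brings DNMT1 to the fork, had a wider range. MEF libraries held 159, 156 and 153 CPM of Uhrf1, those of nx2 day 10 GFP- cells 473, 521 and 555 and those of nx2 iPSC 710.4, 577 and 686. MEF were far below every other nx2 group. GFP- cells stayed at 456, 496 and 513 CPM at day 12 and were at 388, 397 and 387 at day 14, where it fell by 0.32 ± 0.08 (adjusted p = 0.00238). GFP+ cells held 586, 573 and 590.5 CPM at day 12 and 592, 617 and 556 at day 14. The GFP+ libraries were above the GFP- libraries on both days, by 0.26 ± 0.08 at day 12 (adjusted p = 0.0241) and 0.59 ± 0.08 at day 14 (adjusted p = 6.1e-06). Leaving out any 1 of 5 libraries, all but GFP- replicate 3, ended the day 12 call, with adjusted p of 0.0604 to 0.169. From GFP+ cells of day 14 to iPSC the difference was 0.16 ± 0.08, adjusted p = 0.0876.

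In tx2 cells Uhrf1 went with Dnmt1. GFP- libraries held 369, 294 and 352 CPM at day 8, 431, 399 and 374 at day 10 and 272, 288 and 252 at day 12, while GFP+ libraries held 466, 413 and 452 at day 10 and 475, 535 and 584 at day 12. The gates overlapped at day 10 (0.14 ± 0.11, adjusted p = 0.375) and were apart at day 12 (0.97 ± 0.11, adjusted p = 2.8e-07). In GFP- cells Uhrf1 fell by 0.57 ± 0.11 from day 10 to day 12 (adjusted p = 0.000782). Wild-type iPSC, clones of another cross, held 646, 829 and 820.0 CPM, above every tx2 library of day 12. They differed from the GFP+ cells by 0.53 ± 0.11 (adjusted p = 0.000427).

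Uhrf2, the paralogue, ran the other way. MEF held 165, 153 and 157 CPM, nx2 day 10 GFP- cells 83.4, 88.8 and 78.2 and nx2 iPSC 68.2, 55.7 and 65.6, with no overlap between the 3 groups. At day 12 the gates were at 87.6 ± 2.38 (GFP-) and 84.3 ± 10.2 CPM (GFP+) and overlapped. At day 14 GFP- libraries held 99.0, 89.6 and 87.8 CPM and GFP+ libraries 64.0, 61.2 and 58.3, so that all GFP+ libraries were lower (-0.59 ± 0.09, adjusted p = 3.0e-05). In GFP+ cells it fell by 0.47 ± 0.09 between the days (adjusted p = 0.000475) and then lay at the level of iPSC (0.05 ± 0.09, adjusted p = 0.694).

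In tx2 cells Uhrf2 already differed at day 10. GFP- libraries held 132, 129.9 and 125 CPM and GFP+ libraries 94.3, 84.5 and 78.6. The GFP- levels of days 8, 10 and 12 overlapped in sequence, at 125 ± 9.76, 129 ± 3.59 and 122 ± 3.82 CPM, and GFP+ cells differed from them by -0.59 ± 0.09 at day 10 (adjusted p = 4.4e-05) and -0.38 ± 0.09 at day 12 (adjusted p = 0.000716). Wild-type iPSC were at 75.9 ± 5.27 CPM, -0.31 ± 0.09 from day 12 GFP+ cells (adjusted p = 0.00594). That call was lost with the 2 groups fitted alone (adjusted p = 0.0631) and without tx2 day 12 GFP+ replicate 1 (adjusted p = 0.0518).

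Across the 7 group means of each table, log2 levels of Dnmt1 and Uhrf1 had a Pearson r of 0.91 (nx2) and 0.98 (tx2 and clones), and Uhrf1 and Uhrf2 one of -0.94 and -0.88. The points share libraries and scaling, and these values are descriptions. Both maintenance genes are known to be highest in dividing cells, so a list of 22 genes of replication and mitosis was set beside them. From MEF to day 10, 20 of 21 tested members rose and 1 fell (median 0.95, against 0.06 for all genes), led by Prim1 (1.64 ± 0.07), Mcm3 (1.43 ± 0.07) and Mcm7 (1.63 ± 0.08), which prime and open DNA for replication, with Rrm1, a ribonucleotide reductase subunit, lower (-0.49 ± 0.07). That step called 38.8% of all genes higher and 37.6% lower. In tx2 GFP- cells from day 10 to day 12, 0 rose and 20 of 21 fell (median -0.46, against 0.03), with Mcm5 at -0.72 ± 0.09, Rrm2 at -0.69 ± 0.09 and Cdc6 at -0.69 ± 0.10. Of all genes, 16.1% were called higher and 12% lower there. In tx2 day 12 GFP+ against GFP- cells 19 were higher and 1 lower (median 0.71, against 0.05). Of all genes, 31.2% were called higher and 30.4% lower there. The summed level of the list was 3876 to 4336 CPM in those GFP- libraries and 5878 to 6070.0 CPM in the GFP+ libraries, and 3809 to 4022 CPM in MEF against 6759 to 7459 CPM at nx2 day 10. Over the 7 group means, r of this sum with the CPM of Dnmt1 was 0.98 in the nx2 table and 0.93 in the other, and with Uhrf1 0.82 and 0.98. The part of cell division in the levels of Dnmt1 and Uhrf1 was not tested.

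**Figure D3:**
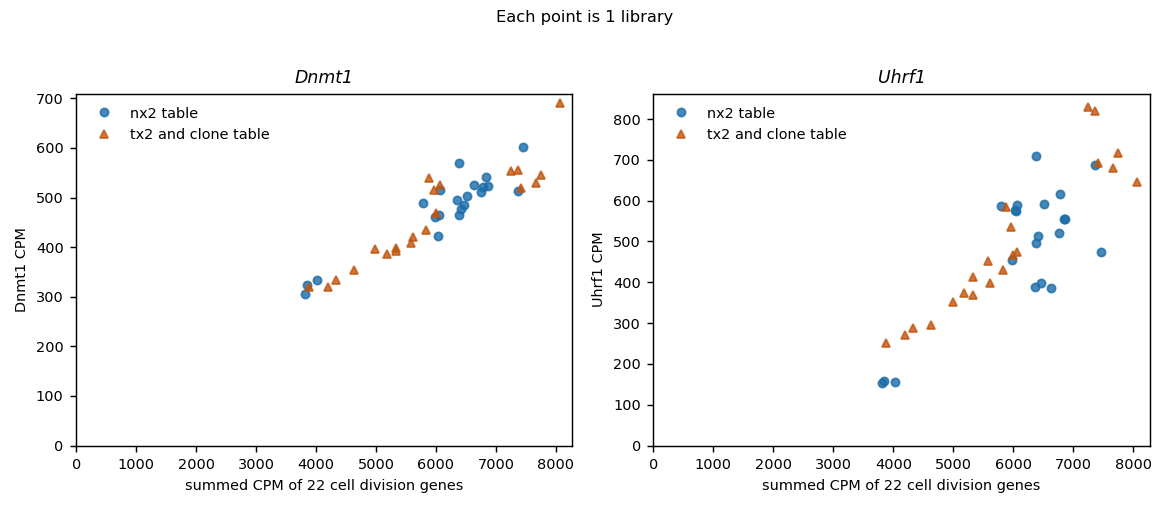
CPM of Dnmt1 (left) and Uhrf1 (right) against the summed CPM of the 22 cell division genes, of which Cdt1 had no counts; each point is 1 library, circles the nx2 table and triangles the tx2 and clone table. MEF and tx2 day 12 GFP- libraries, with sums of 3809 to 4336 CPM, lie at the lower left of both panels.

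Of 10 genes tested that work with the maintenance pair, 8 rose and 1 fell from MEF to nx2 day 10 (median 1.22, against 0.06). That step called 38.8% of all genes higher and 37.6% lower. Dppa3, which removes UHRF1 from chromatin in oocytes and pluripotent cells, was at 68.9 ± 9.92 against 0.0281 ± 0.0486 CPM (day 10 against MEF). Cdca7, a partner of the remodeller HELLS, rose by 2.00 ± 0.08 and Lig1, the replicative ligase that UHRF1 reads when methylated, by 1.77 ± 0.09. The gene 2810417H13Rik, the older name of the PCNA-binding factor gene Pclaf, was lower (-0.65 ± 0.25). From nx2 day 14 GFP+ cells to iPSC Dppa3 went the other way, at 4.23 ± 0.902 against 43.8 ± 4.74 CPM (iPSC against day 14; -3.38 ± 0.16, adjusted p = 2.7e-12), while Cdca7 (0.66 ± 0.08) and Pcna (0.52 ± 0.06), the sliding clamp, rose. Between days 10 and 12 in tx2 GFP- cells, 5 of 10 fell and 0 rose (median -0.37, against 0.03), among them Pcna (-0.48 ± 0.07), Cdca7 (-0.50 ± 0.08) and Lig1 (-0.50 ± 0.08). Of all genes, 16.1% were called higher and 12% lower there. Between the tx2 gates of day 12, 7 were higher in GFP+ cells and 1 lower (median 0.69), beside 31.2% of all genes called higher and 30.4% lower.

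Dnmt3a, a de novo enzyme of which somatic cells and late embryos hold a long form, was lowest in the GFP+ cells of day 12 in both sets and highest in iPSC. Counts per gene join the long form with the short one of pluripotent cells. MEF libraries held 124, 119.9 and 117 CPM, nx2 day 10 GFP- libraries 72.5, 81.6 and 67.4 and nx2 iPSC 243, 284 and 193. The 3 groups did not overlap. GFP- cells of days 12 and 14 were at 74.0 ± 8.76 and 73.3 ± 5.38 CPM, and overlapped those of day 10. In GFP+ cells it was 51.0, 51.1 and 49.0 CPM at day 12, below every other nx2 library, and 75.7, 62.4 and 72.5 CPM at day 14. GFP+ cells were thus lower than GFP- cells at day 12 (-0.55 ± 0.12, adjusted p = 0.00211) and not called against them at day 14 (-0.07 ± 0.12, adjusted p = 0.719), and between the days it rose by 0.48 ± 0.12 in GFP+ cells (adjusted p = 0.00396). From day 14 GFP+ cells to iPSC Dnmt3a rose by 1.78 ± 0.12 (adjusted p = 2.3e-10), a 3.42-fold difference. It was the only member called in that step, where 46.8% of all genes (24.3% higher and 22.5% lower) were called.

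In tx2 cells Dnmt3a was also lowest in GFP+ cells of day 12. That is the last day sorted in this set, labelled stage III, against stage IV for nx2 GFP+ cells of day 12. GFP- libraries were at 138, 134 and 139 CPM at day 8, 139, 131 and 159 at day 10 and 148, 149.7 and 161 at day 12, with overlap between successive days. GFP+ libraries were at 101, 98.5 and 87.4 CPM at day 10 and 56.5, 71.5 and 67.7 at day 12. All GFP+ libraries lay below all GFP- libraries, by -0.58 ± 0.10 at day 10 (adjusted p = 0.00016) and -1.23 ± 0.10 at day 12 (adjusted p = 3.9e-09), and in GFP+ cells Dnmt3a fell by 0.55 ± 0.10 between the days (adjusted p = 0.000479). Wild-type iPSC held 209, 245 and 209 CPM, above every tx2 library. The difference of these clones, of another cross, from day 12 GFP+ cells was 1.76 ± 0.10 (adjusted p = 8.8e-11), or 3.40-fold. Day 12 GFP+ cells thus held 29.5% of the wild-type iPSC level, and nx2 day 14 GFP+ cells 29.2% of that of nx2 iPSC.

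Dnmt3b, the de novo enzyme of the early embryo, was low in MEF. MEF libraries held 6.92, 5.30 and 5.68 CPM and nx2 day 10 GFP- libraries 227, 221 and 238 CPM. That is a 38.0-fold difference (5.25 ± 0.12, adjusted p = 4.8e-19). At day 12 it was lower and at day 14 higher: GFP- libraries held 141, 136 and 136 CPM at day 12 and 314, 277 and 312 at day 14, and GFP+ libraries 158, 127 and 138 at day 12 and 289, 236 and 265 at day 14. All libraries of day 12 lay below all of days 10 and 14. In GFP- cells Dnmt3b fell by 0.73 ± 0.09 from day 10 to day 12 (adjusted p = 2.0e-05) and rose by 1.13 ± 0.09 from day 12 to day 14 (adjusted p = 2.0e-08), and in GFP+ cells it rose by 0.90 ± 0.09 (adjusted p = 4.8e-07). It was the only member called from day 10 to day 12, where 20.2% of all genes (10.1% higher and 10.1% lower) were called. The gates made no called difference on either day, at 0.03 ± 0.09, adjusted p = 0.858, on day 12 and -0.19 ± 0.09, adjusted p = 0.118, on day 14. With iPSC at 287, 327 and 283 CPM, the day 14 libraries of both gates overlapped those of iPSC (0.18 ± 0.09, adjusted p = 0.103 for GFP+ cells).

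In the tx2 lines Dnmt3b followed the gate. GFP- libraries held 37.9, 35.8 and 59.3 CPM at day 8, 82.0, 84.4 and 68.6 at day 10 and 31.9, 38.6 and 31.4 at day 12. GFP+ libraries held 259, 251 and 259 CPM at day 10 and 180.1, 201 and 218 at day 12. Every GFP+ library lay above every GFP- library. The GFP- cells peaked at day 10: Dnmt3b rose by 0.82 ± 0.14 from day 8 (adjusted p = 0.000581) and fell by 1.21 ± 0.14 to day 12 (adjusted p = 2.7e-05). From day 8 to day 10 it was the only member called, where 20.7% of all genes (10% higher and 10.7% lower) were called. The gates differed by 1.71 ± 0.14 at day 10 (adjusted p = 3.3e-08) and 2.56 ± 0.15 at day 12 (adjusted p = 6.2e-11). From day 10 to day 12 in GFP+ cells every library of day 12 lay below every library of day 10, without a call (-0.36 ± 0.14, adjusted p = 0.0624). Wild-type iPSC held 304, 341 and 298 CPM, above both, with 0.65 ± 0.14 over the day 12 cells (adjusted p = 0.000615).

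Dnmt3l, the stimulating cofactor, had the longest climb. MEF libraries held 7, 4 and 2 reads (0.411, 0.337 and 0.118 CPM), at or near the level of 3 reads, which is 0.139 to 0.444 CPM by library. It passed the low-count filter through the other groups. The nx2 libraries then held 18.5, 20.1 and 29.6 CPM at day 10, 26.1, 27.2 and 34.8 (GFP-) and 65.7, 47.4 and 65.7 (GFP+) at day 12, and 117, 124 and 150.2 (GFP-) and 228, 219 and 248 (GFP+) at day 14. On each day GFP+ libraries were all above GFP- libraries, and every day 14 library was above every day 12 library. From the pooled 13 reads in MEF to 941 reads at day 10 the ratio was 80.8, with an exact 95% interval of 47.0 to 152 that covers counting error only. The gates differed by 1.02 ± 0.23 at day 12 (adjusted p = 0.00455) and 0.83 ± 0.21 at day 14 (adjusted p = 0.00641). From day 12 to day 14 Dnmt3l rose by 2.15 ± 0.23 in GFP- cells (adjusted p = 1.7e-06) and rose by 1.96 ± 0.22 in GFP+ cells (adjusted p = 5.1e-06). The nx2 iPSC clones held 211, 428 and 318 CPM, 1 of them below the GFP+ libraries of day 14 and the others above, and the step was not called (0.46 ± 0.21, adjusted p = 0.0798). Without that clone (replicate 1) the log2 fold change was 0.67, with an adjusted p of 0.00554.

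In the tx2 lines Dnmt3l was at a few reads in GFP- cells of days 8 and 10. Libraries held 4, 3 and 3 reads at day 8, 4, 3 and 1 at day 10 and 32, 19 and 17 at day 12, the last 1.53, 2.23 and 1.78 CPM. GFP+ libraries held 26.7, 31.6 and 47.3 CPM at day 10 and 84.8, 96.4 and 131 at day 12, with no overlap with any GFP- library. Pooled reads gave a ratio of 152 between the gates at day 10 (800 against 8 reads, exact 95% interval 77.0 to 354), where the gene passed the low-count filter through the other groups and the fitted fold is set by a few reads. At day 12 the gates differed by 5.87 ± 0.26 (adjusted p = 1.6e-12). Reads at day 12 in GFP- cells were 68 against 8 at day 10, a ratio of 7.72 (3.70 to 18.6). From GFP+ cells of day 10 Dnmt3l rose by 1.57 ± 0.19 to day 12 (adjusted p = 1.1e-05). Wild-type iPSC, of another cross, held 186, 275 and 248 CPM, above day 12 GFP+ cells by 1.18 ± 0.18 (adjusted p = 2.3e-05). In day 12 GFP+ cells Dnmt3l stood at 44.0% of that iPSC level, against 63.6% for Dnmt3b, 69.5% for Uhrf1 and 87.8% for Dnmt1. The gene overlaps Aire, on the other strand, over 1664 bases, and counting was by strand per the file headers.

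In nx2 GFP- cells from day 12 to day 14, 2 of the 6 rose and 1 fell, beside 36.8% of all genes (20.6% higher and 16.2% lower). The counts were also 2 and 1 between the gates at day 12 (all genes 16.6%, 9.93% higher and 6.69% lower) and at day 14 (all genes 31.3%, 14.4% higher and 16.9% lower), with 3 and 1 in GFP+ cells from day 12 to day 14 (all genes 30.5%, 14.5% higher and 16% lower). In tx2 GFP- cells from day 10 to day 12, 1 rose and 3 fell, beside 28.1% of all genes (16.1% higher and 12% lower). Between the gates at day 10 the counts were 2 and 2 (all genes 22.4%, 13% higher and 9.36% lower) and in GFP+ cells between the days 2 and 1 (all genes 25.1%, 12.2% higher and 12.9% lower). All 6 were called between the tx2 gates at day 12, 4 higher and 2 lower, beside 61.6% of all genes (31.2% higher and 30.4% lower). In wild-type iPSC, of another cross, 4 were higher and 1 lower than in those GFP+ cells, beside 51.1% of all genes (25% higher and 26% lower). Markers of other cells moved in several of these steps. All 8 fibroblast markers were lower in the GFP+ cells of tx2 day 12, with sums of 2153 to 2582 against 9167 to 12336 CPM. At tx2 day 10 their sums overlapped, at 4314 to 11450 CPM in GFP+ and 2972 to 8357 CPM in GFP- libraries. Between the tx2 gates of day 10, 5 of 6 leukocyte markers were higher in GFP+ cells and 1, Laptm5, was lower. Sums of the 6 were lower, at 188 to 202 against 220.2 to 299 CPM, but Laptm5 made most of them (means 158 against 254 CPM). Laptm5 was also at a mean of 141 CPM in nx2 iPSC, against 7.74 CPM in MEF. The 5 higher markers had means of 16.9 against 6.44 CPM (Cd68), 8.64 against 0.888 (Csf1r) and 4.05 against 0.259 (Tyrobp). Ptprc was at 3.98 against 0.455 CPM and Fcer1g at 3.20 against 0.890. At nx2 day 14 all 6 trophectoderm markers and 4 of 5 keratinocyte markers tested were lower in GFP+ cells. GFP- cells held 56.4 to 69.1 CPM of the former against 15.6 to 17.7 CPM in GFP+ cells, and 277 to 324 against 139.5 to 164 CPM of the latter. Perp and Sfn, at 186 ± 22.5 and 114 ± 5.55 CPM in GFP- cells, made most of the keratinocyte sum. Trp63 was at 0.985 ± 0.298 CPM there, and the keratins tested in that list were below it. The part of such cells in the members' differences was not tested.

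The difference between the gates itself changed with the day. In tx2 cells it was larger at day 12 than at day 10 for Dnmt1 by 0.66 ± 0.12 (adjusted p = 0.000916), for Uhrf1 by 0.83 ± 0.15 (adjusted p = 0.000753) and for Dnmt3b by 0.85 ± 0.20 (adjusted p = 0.00399), and more negative for Dnmt3a by -0.65 ± 0.14 (adjusted p = 0.002). For Uhrf2 the change was 0.20 ± 0.12, adjusted p = 0.227. For Dnmt3l it cannot be read, because the day 10 difference rests on 8 pooled reads in GFP- cells. Those 4 of 6 calls stand beside 27.3% of all genes (10.5% higher and 16.7% lower). In nx2 cells, between days 12 and 14, 1.54% of all genes (0.688% higher and 0.855% lower) were called and of the members Uhrf2 alone, at -0.54 ± 0.12 (adjusted p = 0.0295). Leaving out any 1 of 10 of the 12 libraries ended that call, with adjusted p up to 0.13.

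**Figure D4:**
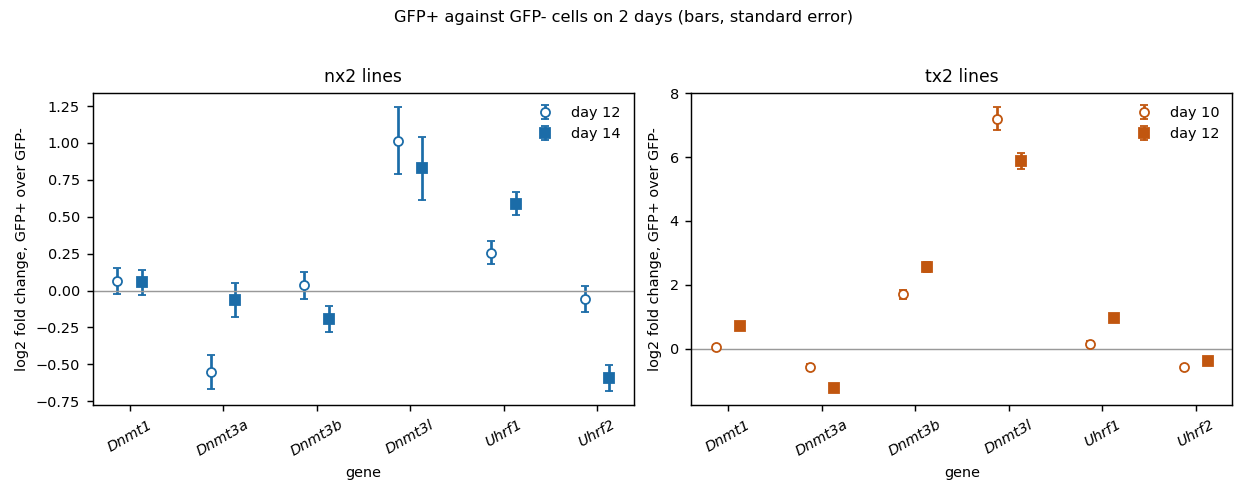
Log2 fold change of GFP+ over GFP- cells for each gene on 2 days, nx2 lines on the left and tx2 lines on the right, with separate vertical scales; bars are standard errors. In tx2 cells Dnmt1 and Uhrf1 lie near 0 at day 10 and at 0.70 and 0.97 at day 12; the tx2 day 10 point of Dnmt3l rests on 8 reads in GFP- cells.

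Knockout of Tet1, the gene of an enzyme that oxidises methylated cytosine, came with more RNA of the de novo genes. Dnmt3b was at 304, 341 and 298 CPM in wild-type iPSC clones and 479, 478 and 488 CPM in knockout clones. Dnmt3l was at 186, 275 and 248 CPM against 394, 414 and 441 CPM, and Dnmt3a at 209, 245 and 209 against 293, 271 and 291 CPM. For each of these genes all knockout clones were above all wild-type clones. Dnmt3b rose by 0.62 ± 0.14 (adjusted p = 0.00654), Dnmt3l rose by 0.81 ± 0.17 (adjusted p = 0.00547) and Dnmt3a rose by 0.36 ± 0.09 (adjusted p = 0.018), or 1.53-, 1.76- and 1.29-fold. These 3 of 6 calls, all upward, stand beside 10.7% of all genes (4.78% higher and 5.87% lower).

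The maintenance genes were not called in the knockout. Dnmt1 was at 690.5, 553 and 556 CPM in wild-type and 546, 529 and 520.1 CPM in knockout clones, Uhrf1 at 646, 829 and 820.0 and 716, 679.5 and 693 CPM, and Uhrf2 at 78.8, 69.8 and 79.1 and 74.5, 79.7 and 79.2 CPM. The differences were -0.17 ± 0.09, adjusted p = 0.208 for Dnmt1, -0.14 ± 0.11, adjusted p = 0.433 for Uhrf1 and 0.04 ± 0.09, adjusted p = 0.826 for Uhrf2. For Dnmt1 the clones did not overlap, and for the UHRF genes they did. Wild-type clone 1, with 12.2% mitochondrial counts, held the most Dnmt1 and the least Uhrf1 and Dnmt3l of its group. Without it Dnmt3b was higher by 0.60 (adjusted p = 0.0167), Dnmt3l by 0.67 (adjusted p = 0.0197) and Dnmt3a by 0.33 (adjusted p = 0.0302), and Dnmt1 differed by -0.06 (adjusted p = 0.678) and Uhrf1 by -0.24 (adjusted p = 0.11). The Dnmt3a call was lost with the clones fitted alone (adjusted p = 0.142) and when any 1 of 3 clones was left out (knockout 1 or 3, or wild-type 3; adjusted p = 0.0579 to 0.074). The labels do not say whether clones came from separate animals, so no p-value here measures the spread between animals. Those of the fit over 7 groups rest on a spread estimated over all of them, sorted tx2 cells included, not over the clones alone. None of 8 fibroblast, 8 pluripotency and 6 leukocyte markers was called between the genotypes and 1 of 6 trophectoderm markers was lower, with fibroblast sums of 1656 to 1998 CPM in wild-type and 1813 to 2492 CPM in knockout clones.

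**Figure D5:**
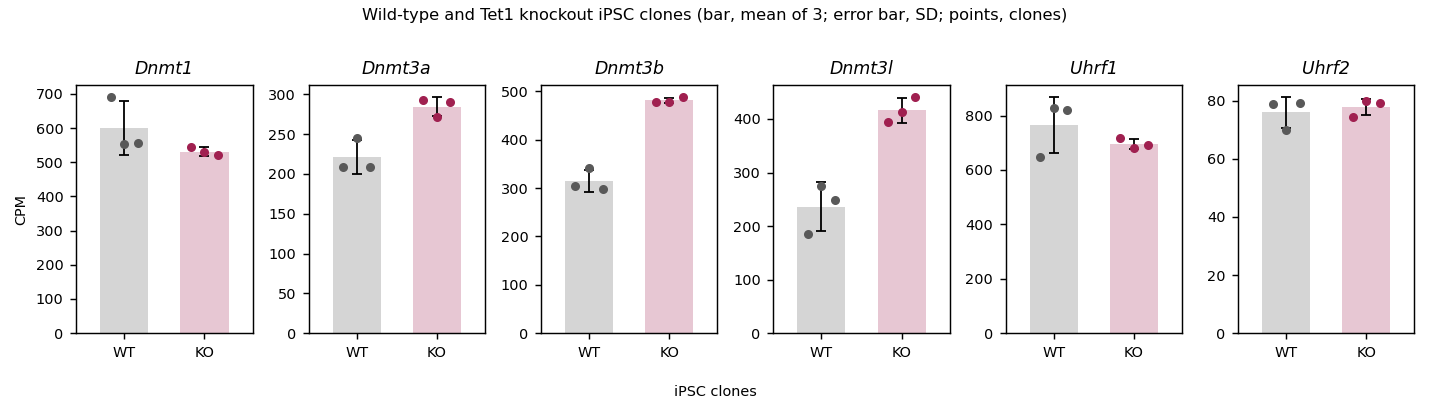
CPM of each gene in the 3 wild-type (grey) and 3 Tet1 knockout (red) iPSC clones, with the mean as a bar from 0 and the SD; each panel has its own scale. The points of Dnmt3a, Dnmt3b and Dnmt3l are all higher in the knockout, whereas those of Uhrf1 and Uhrf2 overlap.

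Germline genes whose promoters are kept silent by methylation in somatic cells had, in the knockout, 0 higher and 6 lower of 19 tested (median -0.51, against -0.04 for all genes, of which 4.78% were called higher and 5.87% lower). Ddx4, an RNA helicase of germ cells, was at 16.1 ± 1.42 against 37.6 ± 8.05 CPM (knockout against wild-type) and Dazl, an RNA-binding protein of germ cells, at 32.2 ± 8.17 against 82.7 ± 35.4 CPM, with log2 fold changes of -1.22 ± 0.23 and -1.35 ± 0.26 (adjusted p = 0.00188 and 0.00404). Asz1, a piRNA pathway gene, was at 0.173 ± 0.0800 against 1.95 ± 0.561 CPM (adjusted p = 0.00693). Among 10 maintenance partners Dppa3 rose (1.32 ± 0.26, adjusted p = 0.00319) and Lig1 fell (-0.35 ± 0.08, adjusted p = 0.0107). Of the 6 methionine cycle genes, which make the methyl donor and clear its product, 2 rose, Mat2b (0.36 ± 0.09) and Mat2a (0.26 ± 0.08). Tdg, the glycosylase that removes oxidised cytosine, rose by 0.66 ± 0.13 (adjusted p = 0.00258). None of 7 repressors or recruiters of the de novo enzymes was called, and 1 of 21 cell division genes was.

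The same germline list was counted between the gates. It was chosen with earlier results of these data known, so these counts are descriptions. At nx2 day 12, 15 of 18 were higher in GFP+ cells and 0 lower (median 2.93, against 0.00), beside 9.93% of all genes called higher, and at day 14 the counts were 14 higher and 0 lower (median 2.07), beside 14.4% of all genes called higher. At tx2 day 10, 10 of 19 were higher and 0 lower, beside 13% of all genes called higher, with several of the list at 0 reads in GFP- cells. At tx2 day 12, 16 of 19 were higher and 1 lower (median 4.35, or 3.87 with Asz1, which had no reads in GFP- cells, at the bound that 3 counts allow; 0.05 for all genes), beside 31.2% of all genes called higher. Tuba3a was at 20.9 ± 7.18 against 0.189 ± 0.0633 CPM there (GFP+ against GFP-), Rpl10l at 24.8 ± 3.27 against 0.154 ± 0.0740 CPM and the germ cell transcription factor gene Sohlh2 at 10.6 ± 2.51 against 0.0827 ± 0.0742 CPM, with Brdt, a bromodomain gene of the testis, lower (1.34 ± 0.298 against 4.56 ± 0.822 CPM). Dnmt3l was called higher in all 4 of these comparisons, at tx2 day 10 against 8 pooled reads in GFP- cells. The part of Dnmt3l in these counts was not tested.

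Of factors that repress the Dnmt3 genes or recruit the enzymes, 6 of 7 were higher and 1 lower in GFP+ cells at tx2 day 12 (median 1.26, against 0.05), beside 31.2% of all genes called higher and 30.4% lower. Prdm14, known as a repressor of the de novo genes in naive cells, was at 47.5 ± 2.71 against 2.08 ± 0.647 CPM (GFP+ against GFP-), Zfp57, which protects imprints, at 398 ± 35.5 against 77.3 ± 8.51 CPM and its corepressor Trim28 at 1315 ± 8.57 against 513 ± 25.4 CPM. E2f6, a repressor that marks germline genes for methylation, was lower (-0.62 ± 0.09). From nx2 day 14 GFP+ cells to iPSC, 0 of 7 were higher and 2 lower (median -0.13, against 0.02), beside 22.5% of all genes called lower. Prdm14 was lower there, at 24.3 ± 2.66 against 63.2 ± 8.02 CPM (iPSC against day 14; -1.38 ± 0.14, adjusted p = 7.9e-08), and so was Zfp57 (-0.51 ± 0.08).

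Readers of methylated CpG fell from MEF to nx2 day 10 in 7 of 8 genes and rose in 1 (median -0.52, against 0.06), in the step that called 37.6% of all genes lower and 38.8% higher. The one that rose was Mbd4, a glycosylase (2.20 ± 0.10), and Zbtb4 and Zbtb38 fell (-2.13 ± 0.21 and -1.15 ± 0.13). Of 5 H3K36 methyltransferase genes tested, whose mark the de novo enzymes read, 2 rose and 3 fell, with Nsd1 at 0.65 ± 0.07 and Ash1l at -1.28 ± 0.07. From nx2 day 14 GFP+ cells to iPSC 4 of 5 rose, beside 24.3% of all genes called higher, with Nsd1 (0.52 ± 0.07) at the smallest p. The methionine cycle gene Mat2a rose there as well, at 390.1 ± 24.6 against 172 ± 19.8 CPM (iPSC against day 14; 1.18 ± 0.09). Of the TET genes, Tet1 and Tet2 were higher and Tet3 lower at nx2 day 10 than in MEF (6.19 ± 0.17, 3.95 ± 0.12 and -2.94 ± 0.13). Of the related genes Trdmt1, which methylates tRNA, was tested, at -0.42 ± 0.13 in that step, and the Dnmt3b copy named Dnmt3c-ps in the tables held 0 to 23 reads per library and was not tested.

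The genes whose pattern was most like that of each member, by the smaller of the 2 Pearson r values over the 7 group means of each table among 10077 genes, included Gins1 and Psmc3ip for Dnmt1 (0.98 each). They were Mcm6, Bcas2 and Elovl6 for Uhrf1 (0.98 each) and Cenpp, Rfc5 and Dmap1 for Dnmt3b (0.99, 0.98 and 0.98). For Dnmt3l they were Rbmxl2, Morc1 and Dnajc6 (0.98 each), and for Dnmt3a Zfp24, Ddx6 and Cul1 (0.92 each). For Uhrf2 they were Ociad1, Otud7b and Ptpre (0.97, 0.97 and 0.95). Dnmt3a was the member least like the others, with r between -0.27 and 0.35 to any of them, whereas Dnmt3b and Dnmt3l had 0.94 and 0.90 with each other. The groups share libraries and scaling, and these values carry no test.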

How the data were processed

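RNA of 42 libraries (poly(A) selected, stranded kit per the labels) was sequenced in 2 batches, and the deposited values are read counts per gene. The authors aligned reads to mm10 with HISAT2 2.1.0, per the submitters' processing notes, and counted them with featureCounts 1.5.3 on the reverse strand over whole gene bodies grouped by gene name, per the file headers. Intronic reads therefore count, and isoforms are joined. The counts were used as deposited.

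Samples were grouped by the labels. Each table was fitted on its own with edgeR 4.0.16 (R 4.3.3; TMM scaling, filterByExpr, robust quasi-likelihood fit over 7 groups), with Benjamini-Hochberg adjustment over all genes tested and calls at 0.05. Standard errors are the log2 fold change over the square root of F. The scripts were tested on simulated data. The 6 genes and the gene lists were chosen with earlier results of these data known. Genes named from a list are the up to 3 called genes with the smallest p in that comparison and the first called against the majority, and, for likeness, the 3 with the largest r. A gene that this rule names is not reported here. Within nx2 and within tx2 the replicate number marks the same line in every group, per the labels. Same-numbered tx2 libraries deviated together in 30 of 30 group pairs (r 0.126 to 0.593), and nx2 libraries had r over 0.1 in 32 of 63 (-0.121 to 0.359). The clone numbers of wild-type and knockout iPSC pair nothing. No 2 libraries held identical counts. Alternatives were DESeq2 1.42.0, other scaling, other filters, fits on the compared groups alone, the line as a block, each library left out, and both libraries with over 8% mitochondrial counts left out.

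Totals of 6540256 to 20783265 reads put 3 reads at 0.139 to 0.444 CPM, and intervals on reads cover counting error only. Promoter sequences came from RefSeq annotation of GRCm38.p6, which has the coordinates of mm10.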

Additional observations from a re-analysis of the deposited data

Results flagged for a closer look

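For 5 results the difference between GFP+ and GFP- cells was itself different on 2 days, by a test of that difference in edgeR's quasi-likelihood fit. In tx2 cells, day 12 minus day 10, it was 0.66 ± 0.12 for Dnmt1 (adjusted p = 0.000916), 0.83 ± 0.15 for Uhrf1 (adjusted p = 0.000753), 0.85 ± 0.20 for Dnmt3b (adjusted p = 0.00399) and -0.65 ± 0.14 for Dnmt3a (adjusted p = 0.002). In nx2 cells, day 14 minus day 12, it was -0.54 ± 0.12 for Uhrf2 (adjusted p = 0.0295). All 8 fibroblast markers had a called and negative difference of the same kind in tx2 cells (median -2.58), beside 16.7% of all genes. In nx2 cells 0 of 8 were called, beside 1.54% of all genes. The part of these markers in the 5 results was not tested. No group had 4 or more libraries, so single libraries were not tested for standing apart.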

How the results depend on the processing

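Of 58 calls on single genes, 53 held under every alternative run. The 5 lost under at least 1 were Dnmt1 from day 10 to day 12 in tx2 GFP+ cells, Dnmt3a in the knockout, Uhrf1 between the nx2 gates at day 12 (adjusted p = 0.0627 with library totals alone and 0.0501 without the filter), Uhrf2 from tx2 GFP+ cells to iPSC and Uhrf2 in the nx2 difference between days. Calls gained were Uhrf1 in that nx2 difference (0.37, adjusted p = 0.022 with DESeq2, and 0.36, adjusted p = 0.00764, on the groups alone), Uhrf1 from day 10 to day 12 in tx2 GFP+ cells (adjusted p = 0.0454 with DESeq2 and 0.0439 on the groups alone), Dnmt3b in the same step (adjusted p = 0.00699 on the groups alone), Dnmt3a in the nx2 difference (adjusted p = 0.0177 on the groups alone) and Dnmt1 from tx2 GFP+ cells to wild-type iPSC (adjusted p = 0.0494 with DESeq2, and 0.0306 or 0.0344 without wild-type replicate 2 or 3). From nx2 day 14 GFP+ cells to iPSC, calls were gained for Dnmt3l without iPSC replicate 1 (adjusted p = 0.00554), Uhrf1 without iPSC replicate 2 (0.0138) and Dnmt3b without day 14 replicate 1 (0.0484). With the line as a replicate block Dnmt3l was called in the tx2 difference (-1.39, adjusted p = 0.0241), a value that rests on 8 reads in day 10 GFP- cells, and the block changed no other call on these genes. No such block could be fitted for wild-type iPSC against tx2 cells, whose numbers mark different things. Leaving out both libraries with over 8% mitochondrial counts changed no call. Library totals alone moved the median of all genes by 0.28 from MEF to day 10, 0.29 from MEF to nx2 iPSC and -0.13 from tx2 GFP+ cells to wild-type iPSC, and every member's call and direction in the former pair held.

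Fitted on the compared groups alone, all genes called were 448 in the knockout (1619 in the fit over 7 groups), 928 in the nx2 difference between days (249), 1440 in nx2 GFP- cells from day 10 to day 12 (3258) and 5171 from tx2 GFP+ cells to wild-type iPSC (7761), and members called were 3 in that nx2 difference and 5 from day 10 to day 12 in tx2 GFP+ cells. DESeq2 called 412 genes and 2 members in the nx2 difference. With 1 library left out, all genes called ranged from 832 to 2581 in the knockout, 117 to 171 in the nx2 difference, 2043 to 3169 in nx2 GFP- cells from day 10 to day 12, 1629 to 3455 from day 8 to day 10 and 2630 to 4486 from day 10 to day 12 in tx2 GFP- cells, and 2107 to 3946 in tx2 GFP+ cells. Members called ranged from 0 to 1 in the nx2 difference, 1 to 2 from nx2 GFP+ cells of day 14 to iPSC and 2 to 3 in tx2 GFP+ cells from day 10 to day 12.

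Reversed signs occurred only in differences near 0 that were called in neither fit. Dnmt1 in the nx2 difference was 0.031 with DESeq2 and with RLE scaling, 0.018 on the groups alone and -0.037 to 0.055 with 1 library left out. Dnmt3a in nx2 GFP- cells from day 10 to day 12 was 0.0011 with a filter at 1 CPM, 0.0037 with DESeq2 and with RLE scaling, 0.060 with library totals alone, 0.00035 without the filter, 0.00066 on the groups alone, 0.0029 without the libraries of high mitochondrial share and -0.081 to 0.089 with 1 library left out. From day 12 to day 14 it was 0.020 with library totals alone, 0.0013 without the filter and -0.088 to 0.066 with 1 library left out. Uhrf2 from nx2 GFP+ cells to iPSC was -0.0026 with library totals alone. With 1 library left out it was -0.025 to 0.12 there, -0.16 to 0.010 between the nx2 gates at day 12 and -0.011 to 0.074 in the knockout. The same ranges were -0.17 to 0.046 for Dnmt1 from nx2 GFP+ cells to iPSC, -0.061 to 0.065 for Dnmt1 between the tx2 gates at day 10, -0.12 to 0.035 for Dnmt3a between the nx2 gates at day 14, -0.063 to 0.098 for Dnmt3b between those at day 12 and -0.024 to 0.051 for Uhrf1 in nx2 GFP+ cells.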
